A study of Mus musculus with 35 samples.

Results

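The genes described here are the 100 autosomal genes that part most widely an epiblast-like cell culture taken directly from mouse embryos from the 3 cultures made from embryonic stem cells (ESCs). They were chosen from 50225 autosomal genes on the measured values themselves. For each gene the gap was the distance, on the log2(TPM + 1) scale, between the 3 libraries of the embryo-derived culture and the nearest of the other 9 culture libraries, and the 100 widest gaps of either direction were kept. TPM is a length-corrected share of the transcripts of a library, so that every library has the same total. In 89 of the 100 genes the embryo-derived libraries were the lowest (called silent members below), and in 11 they were the highest (unique members). A gap above 0 in the silent direction was held by 2.14% of all autosomal genes and in the unique direction by 2.23%. The unique direction held 1120 genes, and 2366 without embryo-derived replicate 1. Because these values chose the genes, the difference between the embryo-derived line and the other cultures is given as a description with no test.

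The embryo-derived 3D EpiSC culture was set up from E5.5 epiblasts and grown as epithelial spheroids in Matrigel, a basement membrane gel, with FGF2, Activin A, the Wnt inhibitor XAV and the BMP inhibitor Noggin. By the study's methods such cultures came from wild-type CD1 and LifeAct-GFP reporter embryos. The labels do not say which of these gave the sequenced line. The ESC-derived 3D EpiSC culture was grown in the same gel and factors from ESCs. The other 2 cultures were flat: 2D EpiSC, converted from ESCs with FGF2 and Activin A, and EpiLC, ESCs given FGF2 and Activin A for 48 h. The embryo libraries came from embryos labelled as wild-type and as strain CD-1: the inner cell mass (ICM) at E3.5, before implantation, and the epiblast at 4 later stages, from E4.5 to E7.5 in steps of 1 day. By the study's methods some matings were of a Pdgfrα:H2B-GFP reporter line, and at E4.5 epiblast cells were picked by hand as cells without GFP after the trophectoderm had been removed. Each of the 9 groups had 3 libraries, and none of the groups is labelled with an engineered deletion. The embryo-derived culture and the others differ in origin, in the mice behind the cells and in the line itself, and these 3 cannot be told apart. The labels do not say whether the 3 libraries of a culture were separate lines or separate cultures of 1 line, so their spread may be technical.

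Many of the widest gaps lay in rows of processed pseudogenes, which are copies of a messenger RNA that were reverse transcribed and inserted elsewhere in the genome. Such a copy can be nearly identical to its parent, and a short read from one may then be placed on the other. Among the other genes are factors that restrict viruses, glutathione enzymes, imprinted genes (expressed from the chromosome of 1 parent) and secreted proteins, and most are on none of these lists. The epiblast is the tissue that gives rise to the body of the embryo, and EpiSCs are its cultured counterpart after implantation.

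All 12 culture libraries carried the epiblast markers: the summed level of the 11 markers present in the file lay between 4764 and 5397 TPM, and each of the 11 had a mean above 1 TPM in all 4 cultures. The summed level of 9 mesoderm markers was 37.9 to 79.6 TPM in the embryo-derived line, 16.1 to 29.7 TPM in ESC-derived 3D EpiSC, 35.3 to 43.7 TPM in 2D EpiSC and 2.95 to 4.79 TPM in EpiLC, with 2 of the 9 above 1 TPM on average in each. Visceral endoderm markers summed to 52.6 to 74.3 TPM in 2D EpiSC and to less than that in each library of the other 3 cultures. In the E5.5 epiblast libraries they summed to 955 to 1017 TPM, which bears on each E5.5 level set beside the cultures below. The part of the mesoderm and visceral endoderm markers in the results was not tested. Across the 27 libraries between 19458 and 25603 autosomal genes were above 0 TPM. The read depth is unknown, since the file holds TPM alone. The cultures were sequenced from poly(A)-selected RNA and the embryos from total RNA depleted of ribosomal RNA, so levels are set side by side between cultures and embryos with no test. Replicates 2 and 3 of the embryo-derived line differed by a median of 0.0611 log2 units over genes, and replicates 1 and 2 of the ESC-derived 3D EpiSC by 0.0700, less than any pair of embryo libraries, where the smallest value was 0.121.

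One library of the other cultures sat with the embryo-derived line in many rows. In ESC-derived 3D EpiSC replicate 1, 51 genes lay within 0.5 log2 units of the embryo-derived libraries although the other 8 libraries were parted from them by at least the smallest gap of the 100. A near-identical copy elsewhere in the genome, defined as another gene with at least 95% identity over at least 50% of the longest transcript, was held by 45 of these 51 genes, and 1 of the 51 was protein-coding. The same count was 1 for ESC-derived 3D EpiSC replicate 3 and 0 for each of the other 7 libraries. Without ESC-derived 3D EpiSC replicate 1 the rule returned 72 of the 100 genes, and the other 28 were replaced. The part of this library in the members' values beyond these counts was not tested.

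**Figure D1:**
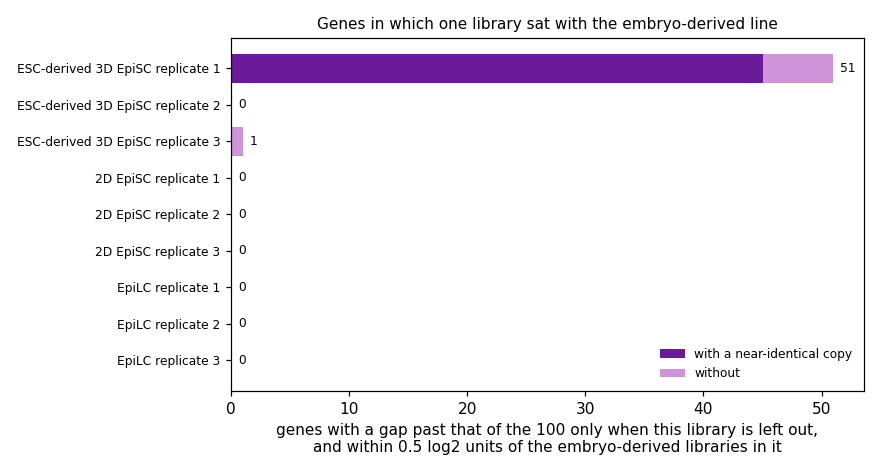
Number of genes, for each of the 9 libraries of the other cultures, that had a gap as wide as the 100 genes when that library was left out and in which that library lay within 0.5 log2 units of the embryo-derived libraries. Dark bars are genes with a near-identical copy elsewhere. ESC-derived 3D EpiSC replicate 1 holds 51 such genes and the other 8 libraries hold 1 or none.

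A near-identical copy was found for 20 members, 13 silent and 7 unique, against 11.6% of all autosomal genes above 2 TPM in at least 3 culture libraries. Among the 74 protein-coding members 3 had one, against a background of 3.33%. Among the other 26 members 17 had one, against a background of 63.6% of expressed genes of those classes. The members other than protein-coding genes were 10 silent and 7 unique pseudogenes, 4 rows annotated as miRNAs, 2 lincRNAs, 1 antisense transcript, 1 processed transcript and 1 transcript model of the class TEC.

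The ferritin light chain family supplied 10 of the 100 genes. Ftl1 encodes the light subunit of ferritin, the protein cage that stores iron. Its last 60 coding bases are shown with the same stretch of 4 pseudogene rows, because each of the 4 differs from Ftl1 here by 1 or 2 bases only. Ftl1-ps1 is called a pseudogene row by its name, although it is annotated as protein-coding and is counted so among the classes above. The stretches of Ftl1-ps1 and Ftl2-ps are identical to each other. Capitals mark the bases that differ from Ftl1, and the positions are on GRCm38.p6, the same coordinates as the mm10 build of the file. The stretch lies on chr7:45458107-45458166 (minus strand, the end of the coding sequence) for Ftl1, on chr13:74407096-74407155 (plus) for Ftl1-ps1, on chr4:125504780-125504839 (plus) for Ftl2-ps, on chr11:45829810-45829869 (plus) for Gm12164 and on chr17:6131854-6131913 (minus) for Gm15590. The fifth pseudogene row, Ftl1-ps2, could not be aligned over the whole stretch without a gap and is not shown.
Ftl1: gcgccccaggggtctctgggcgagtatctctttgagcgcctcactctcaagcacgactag
Ftl1-ps1: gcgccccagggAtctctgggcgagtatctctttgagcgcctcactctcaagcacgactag
Ftl2-ps: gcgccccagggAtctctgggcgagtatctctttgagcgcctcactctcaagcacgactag
Gm12164: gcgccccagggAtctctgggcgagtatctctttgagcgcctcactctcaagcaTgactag
Gm15590: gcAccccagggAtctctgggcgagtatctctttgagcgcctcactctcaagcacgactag

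The 3 Mir692 rows and Gm22774, all annotated as miRNA precursors of 109 bases, are part of the same family. The mature miR-692 sequence from RefSeq is shown with its seed, bases 2 to 8, in capitals, since its 21 bases occur once inside the coding sequence of Ftl1 and in all 5 pseudogene rows.
mmu-miR-692: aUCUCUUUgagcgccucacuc
RefSeq places it on chr4:125504805-125504825 (plus, Mir692-2), chr13:74407121-74407141 (plus, Mir692-3) and chr17:6895259-6895279 (minus, Mir692-1). Mir692-2 overlaps the Ftl2-ps row, Mir692-3 the Ftl1-ps1 row and Gm22774 the Gm15590 row. Over the whole precursor Mir692-2 and Mir692-3 were 97.2% identical to Ftl1, Gm22774 was 96.3% and Mir692-1 was 94.6%. Poly(A)-selected libraries do not measure a mature miRNA, so these 4 rows are read here as stretches of ferritin sequence.

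The family row that was higher in the embryo-derived line was Ftl1 itself, and the 9 other rows were lower. Ftl1 had 2528, 2304 and 2360 TPM in the 3 embryo-derived libraries and between 710.0 and 1134 TPM in the other 9. Ftl2-ps had 72.4, 64.2 and 71.0 TPM in the embryo-derived line and between 1298 and 2319 TPM elsewhere. The groups therefore lay far apart in opposite directions in the parent gene and in its copy.

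Ftl1-ps1 had 167, 136 and 158 TPM against 509 to 991 TPM, and Gm15590 had 54.6, 47.3 and 52.5 TPM against 115 to 171 TPM. Gm12164 and Ftl1-ps2 were near 1 TPM in the embryo-derived line, with means of 1.05 ± 0.231 and 1.17 ± 0.698 TPM (SD, n = 3), and above 105 TPM in each of the other 9 libraries. Mir692-2 had the widest gap of all, 7.05 log2 units, with 1.91, 1.90 and 2.26 TPM against 430 to 723 TPM. Mir692-3 had a gap of 6.05, Gm22774 of 4.37 and Mir692-1 of 3.90. In each of these rows no library of the embryo-derived line reached the level of another culture, as the rule requires.

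Ftl1 and the 5 pseudogene rows, without the 4 miRNA rows, make up the family in the shares and totals below. The share of this family's TPM that fell on the 5 pseudogene rows summarises the pattern. It was 10.5%, 9.79% and 10.7% in the embryo-derived libraries and between 75.3% and 77.7% in the other 9. ESC-derived 3D EpiSC replicate 1, which sat with the embryo-derived line in the 51 rows above, had 77.7% here. When each row was weighted by its transcript length, the family total was 2616 ± 134 (SD, n = 3) in units of Ftl1 TPM in the embryo-derived line and 2607 ± 24.5 in the ESC-derived 3D EpiSC, so these totals differed by less than the spread between replicates. It was 2312 ± 177 in 2D EpiSC and 2937 ± 695 in EpiLC. The weighted totals of the embryo-derived line overlapped those of ESC-derived 3D EpiSC and of EpiLC. They lay just above those of 2D EpiSC (2147 to 2498, against 2500 to 2764). The shares of the embryo-derived line did not overlap those of any other culture. This follows from the rule, which chose Ftl1 and the 5 pseudogene rows for gaps in opposite directions.

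In the embryos the ferritin family was divided as in the embryo-derived line. The pseudogene rows held 8.50% ± 2.13 of the family (SD, n = 3) at E5.5, 8.89% ± 1.65 at E4.5, 8.74% ± 1.07 at E6.5 and 8.94% ± 0.369 at E7.5. At E3.5 the share was 24.1% ± 1.42, and no E3.5 library overlapped the later stages. Ftl1 itself stood at 800, 812 and 917 TPM at E5.5, and Ftl2-ps at 21.3, 12.8 and 19.3 TPM. The embryos and the embryo-derived line thus both had lower shares on the pseudogene rows than the ESC-derived cultures. The likeness was in the shares and not in the level of the family. The length-weighted family total was 906 ± 61.6 at E5.5 and 2616 ± 134 in the embryo-derived line (SD, n = 3). Embryos and cultures also differ in library type, and the cause was not tested.

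**Figure D2:**
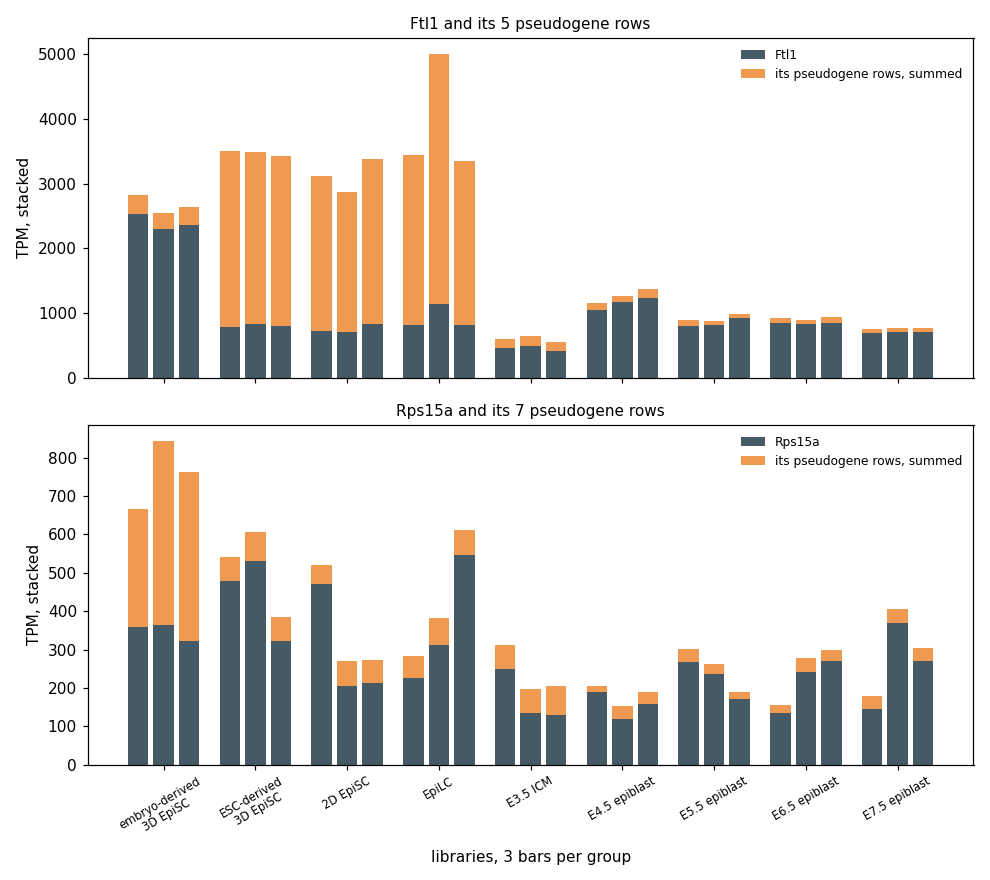
TPM of Ftl1 (upper) and Rps15a (lower) with the summed TPM of their pseudogene rows stacked on top, 1 bar per library and 3 bars per group. The pseudogene rows take 10.3% of the ferritin total on average in the embryo-derived line and over 75% in the other 3 cultures. This total leaves out the 4 miRNA rows. The Rps15a pseudogene rows take 46.0% to 57.7% in the embryo-derived line and at most 23.97% in the other cultures.

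The Rps15a pseudogenes moved the other way and supplied 7 of the 11 unique members. Rps15a encodes a protein of the small ribosomal subunit and was itself not among the 100. Its first 60 coding bases are shown with those of the 3 pseudogene rows that had the widest gap (Rps15a-ps8) or the highest level (Rps15a-ps7 and Rps15a-ps6), with the bases that differ from Rps15a in capitals. They lie on chr7:118115182-118115241 (Rps15a), chr2:152185623-152185682 (Rps15a-ps7), chr11:6172977-6173036 (Rps15a-ps6) and chr4:53791397-53791456 (Rps15a-ps8), all on the minus strand of GRCm38.p6.
Rps15a: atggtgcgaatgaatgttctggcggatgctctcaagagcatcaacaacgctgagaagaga
Rps15a-ps7: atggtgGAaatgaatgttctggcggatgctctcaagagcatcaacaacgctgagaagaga
Rps15a-ps6: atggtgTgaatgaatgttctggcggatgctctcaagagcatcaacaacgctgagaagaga
Rps15a-ps8: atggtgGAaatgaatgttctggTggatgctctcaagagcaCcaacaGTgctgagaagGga

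Rps15a-ps7 had 105, 192 and 166 TPM in the embryo-derived line and 12.9 to 31.5 TPM in the other cultures. Rps15a-ps6 had 102.3, 121 and 113 TPM against 13.9 to 31.1 TPM. Rps15a-ps8, the least similar copy with 92.2% identity to the parent, had 18.1, 48.5 and 46.96 TPM against at most 0.423 TPM. The first embryo-derived library was the lowest of its group in each of the 3, and no library of another culture reached it, as the rule requires.

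Rps15a-ps5 had a mean of 42.8 TPM in the embryo-derived line and Rps15a-ps3 of 40.5 TPM, against at most 9.92 and 10.5 TPM elsewhere. Rps15a-ps4 had 11.96, 14.1 and 16.4 TPM against 2.12 to 3.27 TPM, and Rps15a-ps2 had 7.54, 6.62 and 7.46 TPM against at most 0.620 TPM. The parent Rps15a had 359, 364 and 323 TPM in the embryo-derived line, inside the range of 206 to 546 TPM of the other 9 libraries. The length-weighted family total was 602 ± 55.6 in the embryo-derived line and 486 ± 112 in the ESC-derived 3D EpiSC (SD, n = 3), with ranges of 549 to 660 and 362 to 579 that overlapped. It was 401 ± 167 in EpiLC, which also overlapped, and 333 ± 147 in 2D EpiSC, whose highest library, at 503, lay below the embryo-derived line.

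Unlike the ferritin rows, the Rps15a pseudogenes at E5.5 were not divided as in the embryo-derived line. They took 10.11% ± 0.828 of the family at E5.5 and 53.5% ± 6.5 in the embryo-derived line (SD, n = 3). At E5.5 Rps15a-ps7 had 7.82, 7.56 and 5.66 TPM, below every culture library, and Rps15a-ps8 had at most 0.132 TPM. The E3.5 ICM had the highest share among the embryos, between 20.01% and 36.5%, and still no library above 74.5 TPM for the 7 rows together.

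Among the other pseudogene members the ESC-derived libraries also differed among themselves. Gm6394, a processed pseudogene with a near-identical copy, had 3.38, 4.03 and 4.73 TPM in the embryo-derived line, 357 TPM in ESC-derived 3D EpiSC replicate 1, 90.02 and 86.1 TPM in replicates 2 and 3, and 58.1 to 87.0 TPM in the flat cultures. Gm11478, 98.0% identical to Rpl13a over 600 bases, had 12.96, 31.9 and 33.9 TPM against 165 to 217 TPM. Gm4613 was listed at 0 in all 3 embryo-derived libraries and had 11.8 to 22.2 TPM in the others. Rps4l, a ribosomal protein S4-like row annotated as a transcribed processed pseudogene and with no copy by the rule used, had 0.0643, 0.673 and 1.25 TPM against 121 to 1207 TPM, a gap of 5.75 log2 units, and its level in the E5.5 libraries was 285, 309 and 332 TPM. At E5.5 Gm6394 and Gm11478 were below every library of the other cultures, and Gm4613 was listed at 0 in 1 library and had 11.9 and 14.3 TPM in the other pair.

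Leaving both families aside, 83 members remained, 80 silent and 3 unique. The word silent covers different levels. Of all 89 silent members, 44 were at or below 1 TPM in the 3 embryo-derived libraries, 36 were above 1 TPM in all 3 and 7 were above 10 TPM in all 3. Listed at 0 in all 3 were 5 members, named here because the count is small: Gm4613, Trim25, Crym, Fermt1 and 4930447C04Rik. The median gap was 1.69 log2 units for the silent members (1.01 to 7.05) and 1.58 for the unique members (1.02 to 3.75).

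**Figure D3:**
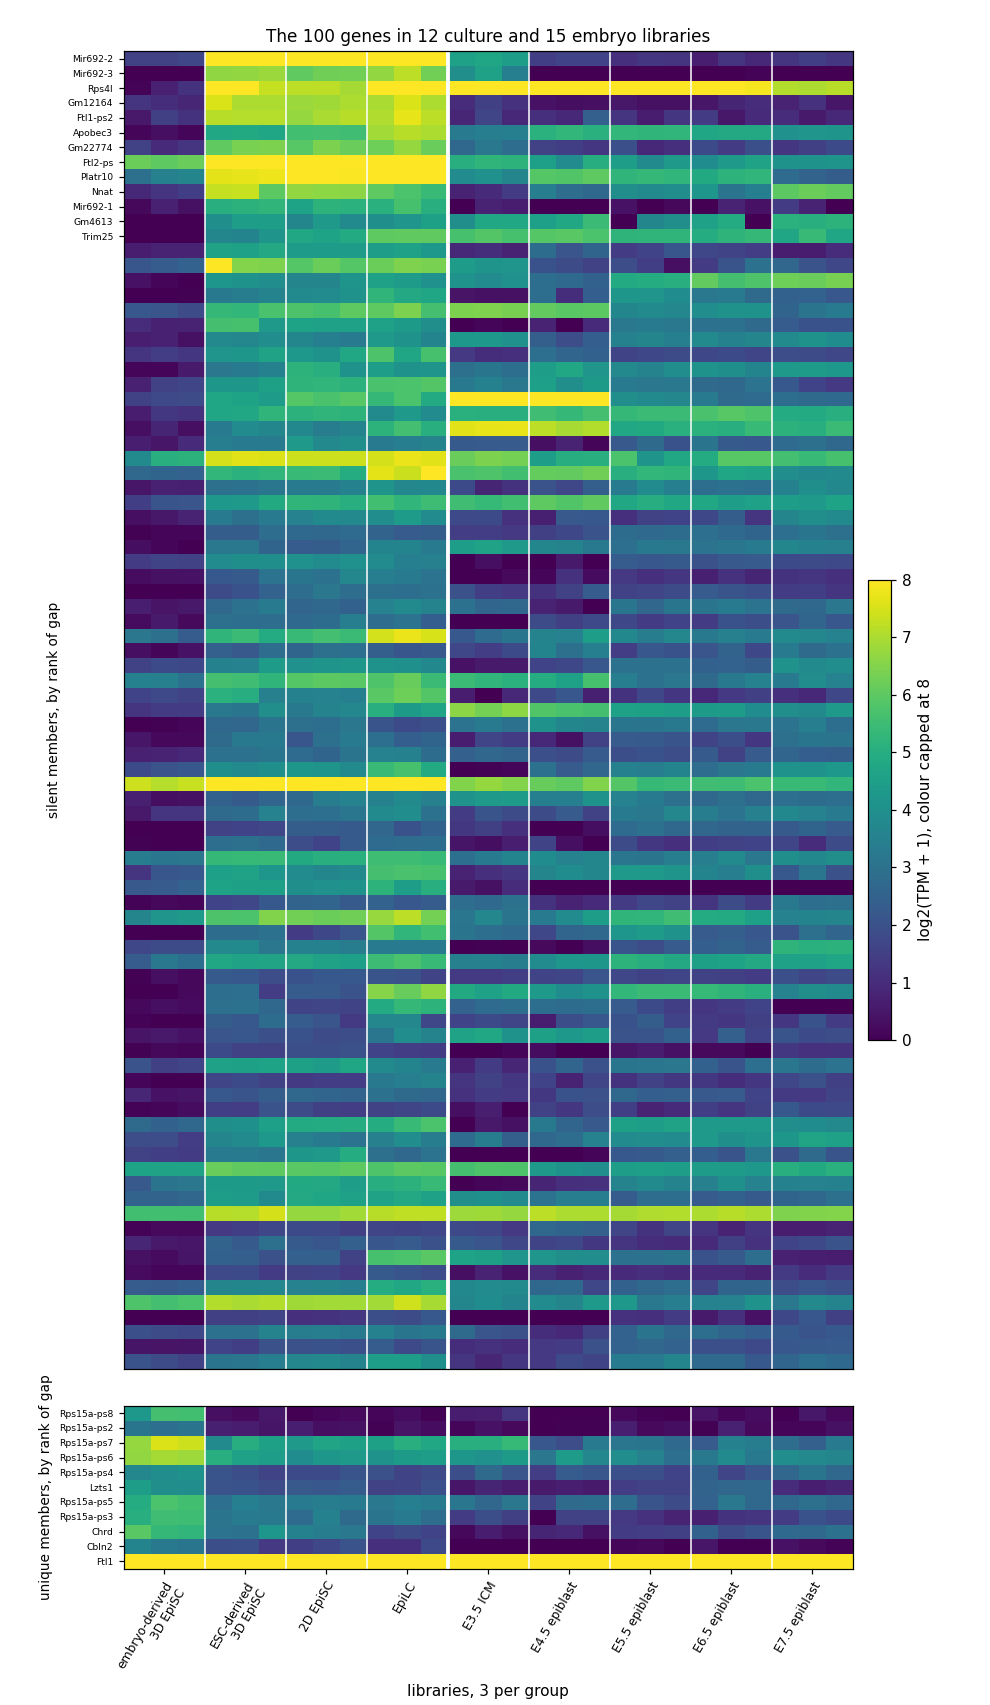
Level of each of the 100 genes as log2(TPM + 1) with the colour capped at 8, in the 12 culture and 15 embryo libraries, 3 columns per group, with the 89 silent members above and the 11 unique members below, each in order of gap, and names at the 13 silent members with the widest gaps and at the unique members. The embryo-derived columns are darker than the other culture columns in the upper block, while the embryo columns after E3.5 are dark in the Mir692 rows and bright for Rps4l, Apobec3 and Trim25.

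Antiviral and interferon-responsive genes gave 4 silent members, all protein-coding: Apobec3, Trim25, Ifitm3 and Bst2. Of the 33 genes of that list above 2 TPM in at least 3 culture libraries, 6 had a silent gap above 0 and 0 a unique gap, against 5.85% and 6.22% of all genes above the same filter. The median difference of the 33 genes (embryo-derived minus the other cultures) was -0.87 log2 units and that of all genes 0.05. Apobec3, a cytidine deaminase that mutates retroviral DNA, had 0.0849, 0.25 and 0.0928 TPM in the embryo-derived line and 25.5 to 141 TPM elsewhere. Trim25, the ubiquitin ligase that activates the RNA sensor RIG-I, was listed at 0 in the 3 libraries and had 11.2 to 65.3 TPM elsewhere. Neither gene was low in the embryo: at E5.5 Apobec3 had 38.3, 36.8 and 37.2 TPM and Trim25 had 35.5, 36.4 and 36.7 TPM.

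Ifitm3, a membrane protein that blocks entry of viruses, had 7.95, 6.67 and 4.03 TPM against 29.6 to 215 TPM, and 12.4, 9.31 and 12.04 TPM at E5.5. Bst2, the tetherin that holds budding virions on the cell, had 11.4, 16.8 and 18.8 TPM against 51.8 to 146 TPM, and 36.9, 37.3 and 45.6 TPM at E5.5. These 2 genes were lower in the embryo-derived line without being near 0. The promoter bases of the 3 protein-coding silent members with the widest gaps among those found in the RefSeq promoter table are shown with the CG dinucleotides, the sites of DNA methylation, in capitals. Each run is the 250 bases before the RefSeq start site: chr15:79892158-79892407 (plus) for Apobec3, chr2:157559828-157560077 (plus) for Nnat and chr11:88999153-88999402 (plus) for Trim25, on GRCm38.p6, with 12 CG dinucleotides in each. The Apobec3 start site lies 749 bases from the start of the gene in the deposited file.
Apobec3: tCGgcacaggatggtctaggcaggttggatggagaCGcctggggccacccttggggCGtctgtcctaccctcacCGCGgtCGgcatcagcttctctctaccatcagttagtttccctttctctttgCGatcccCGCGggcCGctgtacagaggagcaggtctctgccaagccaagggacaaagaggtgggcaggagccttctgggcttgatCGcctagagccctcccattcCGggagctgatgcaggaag
Nnat: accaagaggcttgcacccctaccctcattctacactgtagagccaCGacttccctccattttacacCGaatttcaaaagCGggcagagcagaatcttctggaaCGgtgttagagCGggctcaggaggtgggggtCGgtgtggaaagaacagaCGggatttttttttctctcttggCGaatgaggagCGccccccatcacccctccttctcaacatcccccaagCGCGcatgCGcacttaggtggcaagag
Trim25: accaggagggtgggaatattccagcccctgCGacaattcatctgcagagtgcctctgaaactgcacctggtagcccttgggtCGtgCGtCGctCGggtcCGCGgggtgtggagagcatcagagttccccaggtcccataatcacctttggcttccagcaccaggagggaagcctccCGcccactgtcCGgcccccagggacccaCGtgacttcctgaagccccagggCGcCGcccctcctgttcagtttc

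Glutathione and xenobiotic enzymes gave 5 silent members: Gpx3, Gpx7, Nqo1, Gstm4 and Gstm2. Of the 40 genes of that list above the filter, 13 had a silent gap above 0 (32.5%) and 1 a unique gap (2.5%). The shares of all genes above the filter were 5.85% and 6.22%. The list's median difference was -0.33 log2 units. The gaps are the values the rule used and the lists were written with earlier results known, so these shares are a description. Gpx3, a secreted glutathione peroxidase, had 0.314, 0.0914 and 0 TPM in the embryo-derived line, 11.4 to 22.9 TPM in the other cultures and 28.8, 30.1 and 31.4 TPM at E5.5. Gpx7, a peroxidase of the endoplasmic reticulum, had 0.25, 0.421 and 0.734 TPM against 6.73 to 20.5 TPM, and 1.13, 2.01 and 2.04 TPM at E5.5. The E5.5 libraries thus had more Gpx3 than any culture library and less Gpx7 than any library of the other 3 cultures. They also held visceral endoderm markers at 955 to 1017 TPM, whose part in these levels was not tested.

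Nqo1, a quinone reductase, had 2.04, 2.39 and 2.12 TPM in the embryo-derived line and 1.24, 2.27 and 1.42 TPM at E5.5, against 10.0 to 74.0 TPM in the other cultures. Gstm4 and Gstm2, glutathione S-transferases of the mu class that lie 54.0 kb apart on chromosome 3, had means of 0.770 ± 0.123 and 4.97 ± 0.220 TPM (SD, n = 3) in the embryo-derived line. In the other cultures Gstm4 had 4.93 to 10.8 TPM and Gstm2 12.8 to 27.7 TPM. Gstm1, between the 2 genes and not a member, had a silent gap of 0.12 log2 units.

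Of the 63 imprinted genes above the filter, 11 had a silent gap above 0 (17.5%), 2 had a unique gap (3.17%) and 2 were members. For this and the next 2 lists the shares of all genes above the filter were 5.85% and 6.22%. Nnat, the paternally expressed gene of a small membrane proteolipid, had 0.839, 1.34 and 1.78 TPM in the embryo-derived line, 42.0 to 159 TPM elsewhere and 14.3, 12.8 and 14.0 TPM at E5.5. Gatm, an enzyme of creatine synthesis, had 1.68, 2.09 and 1.95 TPM against 10.0 to 15.6 TPM, and 3.97, 3.49 and 3.82 TPM at E5.5. Both genes lay between the 2 sets of cultures at E5.5. Of 23 genes of MHC class I and antigen presentation, 5 had a silent gap (21.7%) and 1, H2-Q6, was a member. H2-Q6 had 0.211, 0.275 and 0.303 TPM against 3.61 to 11.97 TPM. Germline genes repressed by DNA methylation gave no member, although 8 of 32 had a silent gap above 0 (25%), the widest being 0.42 log2 units in Sycp1. The list's median difference was -1.17 log2 units.

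Of 44 secreted ligands and neuropeptides above the filter, 7 had a silent gap (15.9%), 7 a unique gap (15.9%) and 2 were silent members. The shares of all genes above the filter were 5.85% and 6.22%. Ccl27a, a chemokine, had 0.596, 0.395 and 0.987 TPM against 8.73 to 18.6 TPM, and Igfbp5, which binds insulin-like growth factors, had 2.24, 2.51 and 2.63 TPM against 8.09 to 13.3 TPM. Of 371 C2H2 zinc finger genes, 21 had a silent gap (5.66%) and 32 a unique gap (8.63%), near the shares of all genes above the filter. The 2 zinc finger members were Zfp990, with 5.54, 5.03 and 4.77 TPM against 29.97 to 261 TPM, and Zfp459, with 0.341, 0.475 and 0.309 TPM against 2.51 to 14.3 TPM.

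The other silent members with the widest gaps had no list in common. Platr10, a long noncoding RNA, had 6.70, 10.5 and 11.6 TPM in the embryo-derived line, 204 to 367 TPM in the other cultures and a mean of 37.7 TPM at E5.5. Arc, a capsid-forming protein related to retrotransposon Gag and known from synapses, had 0.516, 0.695 and 0.705 TPM against 18.4 to 27.5 TPM, and a mean of 2.41 TPM at E5.5. In both genes the E5.5 level fell between the embryo-derived line and the other cultures.

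Capg, an actin-capping protein, had 3.46, 3.35 and 2.53 TPM in the embryo-derived line, 38.7 to 84.7 TPM in the others and a mean of 12.4 TPM at E5.5. Npepl1, an aminopeptidase-like gene, had 0.604, 0.649 and 0.285 TPM against 9.12 to 18.5 TPM, and a mean of 10.6 TPM at E5.5. A230050P20Rik was listed at 0 in 2 of the 3 embryo-derived libraries and at 0.0263 TPM in the third, against 8.36 to 37.0 TPM, with a mean of 16.2 TPM at E5.5. The remaining uncharacterised gene models had narrower gaps, among them Gm43041 (2.61 log2 units), 2410003L11Rik (2.56), 2210016F16Rik (2.03), Gm43803 (1.46), Gm6871 (1.10) and Gm20541 (1.07).

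A further 38 silent members were Nptx2, Ctsc, Apoc1, Fbxw17, Klhl22, Rtl6, Crym, Mettl7a1, Smim3, Ripk3, Crip1, Frrs1, Cdcp1, Tlcd2, Pvt1, Slc50a1, Fermt1, Ldhc, Pdcd5-ps, Tmem54, Srgap3, Acer2, Map10, Pmaip1, Prss41, Loxl1, Stap2, Lipo3, Rbbp8nl, Tagln3, Pcbd1, Cnn1, Pop4, Gldc, Prom2, Pstpip2, Tspyl3 and Hmgcll1. Their gaps ran from 1.04 to 2.60 log2 units, and their mean level in the embryo-derived line from 0 to 46.9 TPM with a median of 0.322 TPM. Above 1 TPM in all 3 E5.5 libraries were 34 of the 38. The background was 94.8% of the genes above 1 TPM in all 9 libraries of the other cultures, not matched for level.

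The 3 unique members outside both families were protein-coding. Chrd, the secreted BMP antagonist chordin, had 61.1, 38.9 and 37.8 TPM in the embryo-derived line and 2.05 to 17.4 TPM in the other cultures, where ESC-derived 3D EpiSC replicate 3 was the highest. Lzts1, a leucine zipper protein, had 21.1, 14.5 and 14.0 TPM against 1.97 to 4.02 TPM. Cbln2, a secreted synaptic organizer of the cerebellin family, had 11.2, 8.45 and 7.64 TPM against 1.15 to 3.16 TPM. At E5.5 Chrd had 1.65, 1.75 and 1.86 TPM, Lzts1 1.74, 2.00 and 1.99 TPM, and Cbln2 at most 0.116 TPM, so none of the 3 reached the embryo-derived level in the epiblast.

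The last members of the 100 and the first genes outside had nearly the same gap. Fmn1 had a gap of 1.02 log2 units and Ano9 of 1.01, and the next 2 genes, Parp12 (silent) and the pseudogene Ppp1r2-ps4 (unique), had 1.01 and 1.00.

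The E5.5 epiblast is the stage the embryo-derived line was taken from. Above 1 TPM in all 3 E5.5 libraries were 77 of the 89 silent members, and 71 of the 76 without a near-identical copy. The background was 94.8% of the genes above 1 TPM in all 9 libraries of the other cultures, not matched for level. At or below 1 TPM in all 3 were 5, against 1.73% of the same genes. The 5, named because the count is small, were Mir692-1, Mir692-3, Gm12164, the antisense transcript Gm43803 and Loxl1, a lysyl oxidase-like enzyme. No silent member was at or below 1 TPM in all 15 embryo libraries, against a background of 0.314%, which with 89 genes is close to that share. Above 1 TPM in all 15 were 44 silent members, and no background was counted for this. In 71 of the 89 the 3 E5.5 libraries were all above the highest embryo-derived library, against 55.3% of the genes with a silent gap above 0. The members were chosen for low embryo-derived levels.

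The E5.5 level was nearer the embryo-derived line than the other cultures in 32 of the 89 silent members, against 50% of the genes with a silent gap above 0. The culture levels in this distance also chose the members, so this count and the split that follows are a description. Of the 13 silent members with a near-identical copy, 11 were nearer the embryo-derived line. The E5.5 level of the 13 was lower than in the other cultures by a median of 4.97 log2 units. The ferritin family supplied 9 of the 13, so these values mostly describe that family. Outside it, Gm6394 and Gm11478 were nearer the embryo-derived line, and Gm4613 and Mettl7a1 were nearer the other cultures. Of the 76 without a copy, 21 were nearer and the median distance was 0.65 log2 units. No background was counted for this split. Of the 80 silent members outside both families, 73 were above 1 TPM in all 3 E5.5 libraries, against the same background of 94.8%.

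**Figure D4:**
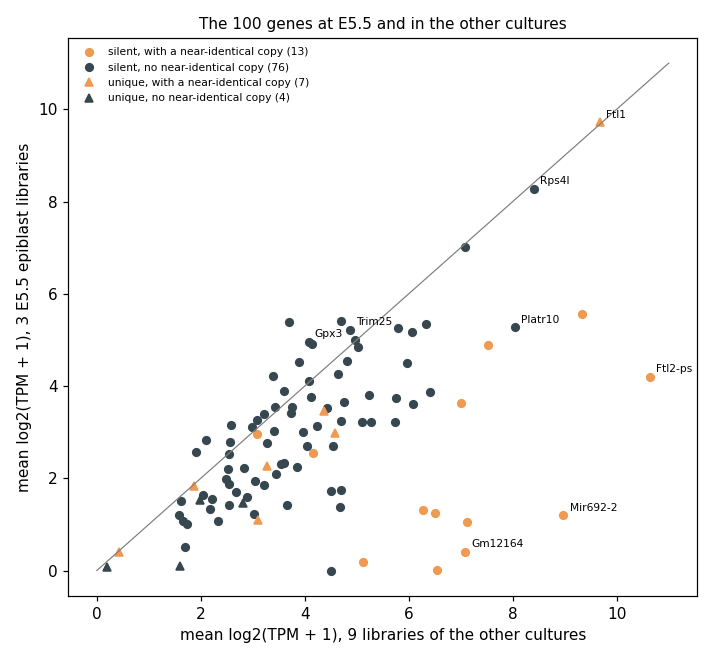
Mean log2(TPM + 1) of each of the 100 genes in the 3 E5.5 epiblast libraries against the 9 libraries of the other cultures, with equal values on the grey line. Circles are silent and triangles unique members, and orange marks members with a near-identical copy. All 13 orange circles, of which 9 are ferritin rows, lie below the line, by a median of 4.97 log2 units. Of the 76 dark circles 58 lie below it, with a median distance of 0.65 over the 76.

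Of the 11 unique members, 7 were above 1 TPM in all 3 E5.5 libraries, against a background of 2.1% of genes at or below 1 TPM in all 9 libraries of the other cultures. The count was 14 when the genes were chosen without embryo-derived replicate 1, 16 without ESC-derived 3D EpiSC replicate 1 and 0 with a pseudocount of 0.1. The background does not match these 7, since all 7 were also above 1 TPM in all 9 of those libraries. They were Ftl1, Chrd, Lzts1 and Rps15a-ps4 to Rps15a-ps7. Rps15a-ps2, Rps15a-ps8 and Cbln2 were at or below 1 TPM in all 3 E5.5 libraries. In all 11 the E5.5 libraries lay below the lowest embryo-derived library. In 0 of 11 was the E5.5 level nearer the embryo-derived line, against 15.4% of the genes with a unique gap above 0. With 11 genes this is close to that share, and the culture levels in this distance also chose the genes, so it is a description.

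Changes between embryo stages did not enter the choice of the genes and were tested with limma, a linear model with moderated variances fitted to all 15214 autosomal genes above 2 TPM in at least 3 embryo libraries. Of the 100 members, 89 passed this filter, 81 silent and 8 unique. A call needed a Benjamini-Hochberg adjusted p below 0.05 and a range of stage means, or a step between stages, above 1 log2 unit. Called were 67 silent and 4 unique members, 71 in all, against 57.6% of all genes tested. The embryo libraries also differed in markers of other tissues. The summed level of 13 visceral endoderm markers was 398 to 405 TPM at E3.5, 168 to 192 TPM at E4.5 and 955 to 1017 TPM at E5.5. That of 10 trophoblast markers was 517 to 541 TPM at E3.5, 527 to 543 TPM at E4.5 and 21.6 to 23.6 TPM at E5.5. From E6.5 to E7.5 the mesoderm markers went from 134-176 to 304-320 TPM, the trophoblast markers from 35.0-45.9 to 153-170 TPM, 11 fibroblast markers from 46.7-57.4 to 120-128 TPM and the epiblast markers from 3298-3794 to 1173-1219 TPM. The part of these markers in the results was not tested. By the study's methods RNA was fragmented differently for E3.5 and E4.5 than for the later stages, so the step from E4.5 to E5.5 and this change of protocol cannot be told apart. In these pooled tissues fewer cells of a type and less RNA per cell cannot be told apart.

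The steps between stages were uneven. From E4.5 to E5.5, 23 silent members rose (13.7% of all genes tested rose) and 11 fell (9.2% of all genes). From E3.5 to E4.5, 18 members rose (background 5.63%) and 15 fell (12.1%). From E5.5 to E6.5, 1 member rose, Lzts1 (background 0.756%), and 1 fell, 4930447C04Rik (1.22%). From E6.5 to E7.5, 7 members rose (12.9%) and 10 fell (1.99%).

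Among the called members with the widest range over the stages were Cldn4, Igfbp5, Nnat and Cthrc1, all silent. Cldn4, a tight junction protein, had means of 310 TPM at E3.5, 260 TPM at E4.5 and 13.1 TPM at E5.5, and fell by 4.21 on the log2 scale from E4.5 to E5.5 (SE 0.13, adjusted p = 6.51e-11). No library of the 2 earlier stages overlapped the 3 later ones. Igfbp5 rose by 1.92 log2 units from E4.5 to E5.5 (SE 0.11, adjusted p = 1.78e-08) and by 2.73 from E6.5 to E7.5 (SE 0.11, adjusted p = 2.06e-09), to a mean of 34.4 TPM.

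Nnat rose by 1.97 log2 units from E3.5 to E4.5 (SE 0.26, adjusted p = 4.61e-05) and by 2.51 from E6.5 to E7.5 (SE 0.26, adjusted p = 9.48e-06), reaching 62.4, 72.0 and 66.7 TPM at E7.5, inside the range of the ESC-derived cultures. Cthrc1, a secreted collagen triple helix protein, rose by 2.39 log2 units from E3.5 to E4.5 (SE 0.21, adjusted p = 9.79e-07) and by 1.85 from E4.5 to E5.5 (SE 0.21, adjusted p = 7.32e-06). Igfbp5, Nnat and Cthrc1 were near 0 in the E3.5 ICM, at 1.08 TPM or less on average.

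Among the antiviral members Apobec3 rose by 1.78 log2 units from E3.5 to E4.5 (SE 0.08, adjusted p = 3.22e-09) and Ifitm3 by 1.18 at the same step (SE 0.25, adjusted p = 0.00203), while Bst2 rose by 1.47 from E4.5 to E5.5 (SE 0.24, adjusted p = 0.000232) and fell by 1.18 from E6.5 to E7.5 (SE 0.24, adjusted p = 0.00180). Trim25 was not called, its range of stage means being 0.92 log2 units. Gpx3 fell by 1.29 from E3.5 to E4.5 (SE 0.13, adjusted p = 3.66e-06) and rose by 2.26 from E4.5 to E5.5 (SE 0.13, adjusted p = 1.44e-08), while Gpx7 rose from E6.5 to E7.5 by 2.03 log2 units (SE 0.39, adjusted p = 0.000963). Among the unique members Chrd was called over the stages with a range of 2.42 log2 units (adjusted p = 3.13e-07) and was highest at E7.5, at a mean of 5.97 TPM.

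**Figure D5:**
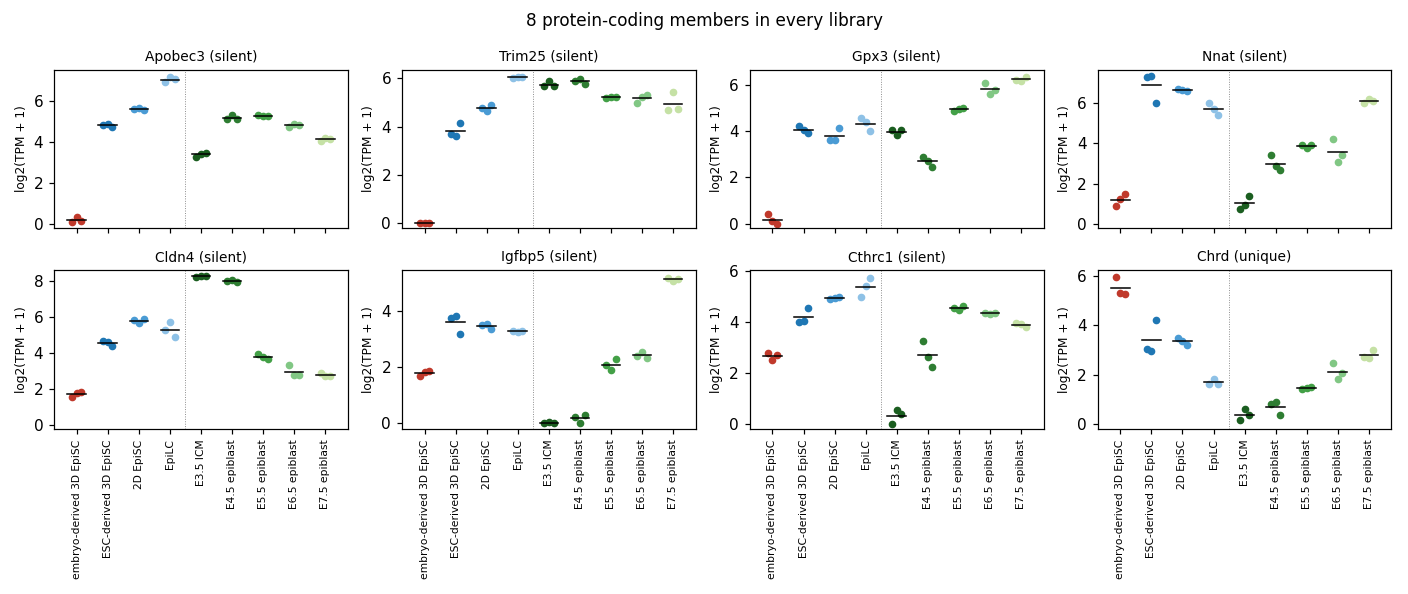
Level of 8 protein-coding members as log2(TPM + 1) in every library, 1 point per library and a black line at each group mean, with cultures left and embryo stages right of the dotted line. Trim25 sits at 0 in the 3 embryo-derived libraries and above 3.6 in every other library, Cldn4 drops between E4.5 and E5.5, and Chrd is higher in the embryo-derived line than in any embryo library.

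The 9 libraries of the other cultures entered the choice of the genes, so differences among these 3 cultures are described with no test. EpiLC was the culture with the highest mean in 54 of the 89 silent members, against 31.3% of all genes above the filter. 2D EpiSC was the highest in 20 (46.6% of all genes) and ESC-derived 3D EpiSC in 15 (22.1%). Ifitm3 was lower in ESC-derived 3D EpiSC than in EpiLC by a log2 difference of -2.38, Apobec3 by -2.23 and Trim25 by -2.23. Zfp990 differed by -2.46 and Rps4l by -1.81. Chrd had the opposite order, with a difference of 1.72, and was close to 2D EpiSC in ESC-derived 3D EpiSC, with a difference of 0.05.

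The members were spread over all 19 autosomes. Chromosomes 4 and 7 held 11 each, where 6.82% and 8.09% of the expressed autosomal genes lie. The median difference between the embryo-derived line and the other cultures ran from -0.04 to 0.10 log2 units over the chromosomes, so no autosome was shifted as a whole. Another member lay within 1 Mb of 17 of the 100, against 15% of expressed autosomal genes with a member within that distance. Among these, Mir692-2, Mir692-3 and Gm22774 overlapped the pseudogene row that holds their sequence, and Mir692-1 lay 763 kb from Gm15590. The pair Ftl1, unique, and Dhdh, silent, lay 11.1 kb apart on chromosome 7, Dhdh being a dihydrodiol dehydrogenase with 2.02, 2.51 and 2.33 TPM against 10.5 to 19.99 TPM. The apoptosis gene Bax lies between them and had no gap.

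The other pairs were Gstm2 and Gstm4, Ifitm3 and Ano9 at 90.4 kb on chromosome 7, Pla2g10 and 2900011O08Rik at 256 kb on chromosome 16, and 4930447C04Rik and Tmem30b at 603 kb on chromosome 12. Ano9, an anoctamin, had a mean of 2.53 ± 0.613 TPM in the embryo-derived line (SD, n = 3), Pla2g10, a secreted phospholipase, 0.188 ± 0.0683 TPM, and Tmem30b, a subunit of lipid flippases, 2.62 ± 0.279 TPM. Without the members that have a near-identical copy, 8 members had another within 1 Mb. Of the 74 protein-coding members, 54 had a promoter in the RefSeq table, under 80%, so a comparison of promoter composition with other genes was void and is not given.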

How the data were processed

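Bulk RNA-seq of 12 culture and 15 embryo libraries was used. Reads had been trimmed with cutadapt 2.4, aligned to mm10 with STAR and quantified with StringTie, as named in the submitters' processing notes, and the authors deposited 1 table of TPM per gene, a unit without read depth. No column was left without a sample. The 12 gene identifiers present on several lines were summed, and empty cells were set to 0. The members and gene lists were chosen with earlier results of these data known.

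Members were ranked by the gap on log2(TPM + 1). Named in the text were the 20 silent and 10 unique members with the widest gaps, members on a gene list or within 1 Mb of another, ranks 99 to 102, and the 5 called members with the widest range over stages. Some genes that this rule names are not reported here. Stages were tested with limma 3.58.1 (R 4.3.3) on log2(TPM + 1), without a block, Benjamini-Hochberg adjusted over all genes tested, filter above 2 TPM in at least 3 libraries. The same fit over the cultures gave the log2 differences among the other 3 cultures, and its p-values are not reported because those libraries entered the rule. The test was checked on simulated data. Libraries with the same replicate number did not deviate together (mean r of 0.0159 over the cultures and -0.0304 over the stages), so numbers pair nothing. Near-identical copies were found with BLAST+ 2.17.0 between the longest GENCODE transcripts. Biotypes were matched for 50188 of 50225 autosomal genes. Promoters and the miRNA are RefSeq sequences on GRCm38.p6. The alternatives were another pseudocount, rescaled TPM, other filters, protein-coding genes alone, other thresholds and leaving out libraries.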

Additional observations from a re-analysis of the deposited data

How the results depend on the processing

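The TPM values hold no depth, so low levels carry no counting interval, and with 3 libraries per group no single library could be tested as an outlier. Most dependence lay in which library was left out and in the pseudocount, which sets how much low genes weigh. With a pseudocount of 0.1, 64 of the 100 genes were kept, 12 silent members were at or below 1 TPM at E5.5 and 0 unique members were above it. With rescaled TPM 94 were kept. Among protein-coding genes alone these 2 E5.5 counts were 2 and 3. With a threshold of 2 TPM, 13 silent members were at or below it at E5.5. At a distance of 3 Mb, 34 members had a neighbour among the 100. Over members without a near-identical copy, an alternative chosen after seeing the data, the 2 E5.5 counts were 2 and 2, and 8 members had a neighbour within 1 Mb.

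Leaving out 1 library at a time gave 76 to 89 silent members, 1093 to 1576 genes with a silent gap, 1147 to 2366 with a unique gap, 5 to 7 silent members at or below 1 TPM and 6 to 16 unique members above 1 TPM at E5.5 (the E5.5 libraries also left out, chosen after seeing the data), and 9 to 17 members with a neighbour within 1 Mb. The count of 2366 came without embryo-derived 3D EpiSC replicate 1, which also gave 14 unique members above 1 TPM at E5.5; the count of 16 came without ESC-derived 3D EpiSC replicate 1, which gave 9 neighbours, and 2D EpiSC replicate 3 and embryo-derived replicate 3 gave 10 and 11. The cause was not tested. Members called over the stages ranged from 68 to 72 and between successive stages from 68 to 73. With the replicate block these were 71 and 72, the values without it, and the samples share only a number. No member's gap changed direction under the alternatives. Leaving out a library or changing the pseudocount cannot reverse a gap, so only the rescaled TPM could have shown a reversal.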
